A study of Mus musculus with 7 samples.

Results

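Passage from G1 into S phase is controlled by D cyclins and the kinases they activate, and the genes described here are 10 members of that switch: the D cyclins Ccnd1, Ccnd2 and Ccnd3, the kinases Cdk4 and Cdk6, the transcription factor gene Myc, and the kinase inhibitors Cdkn1a, Cdkn1b, Cdkn2c and Cdkn2d. They were chosen by symbol, and each matched 1 of the 55335 gene identifiers of the deposited tables. All 10 are annotated as protein coding. RNA came from ILC2s, the group 2 innate lymphoid cells, which respond to interleukin 33 through its receptor ST2 and lack rearranged antigen receptors. They were sorted as CD45-positive, lineage-negative and ST2-positive cells from mouse hearts. There were 3 libraries of naive hearts and 4 of heart allografts from BALB/c donors in C57BL/6 recipients, a model of acute rejection, taken on day 7 after transplantation. Each library was a pool of cells of 4 to 7 hearts, so libraries and not animals were the replicates. The labels gave no genotype, sex or age for either group and no strain for the naive hearts, which carry the same 7-day time label as the allografts.

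In dividing lymphocytes, growth signals induce Myc and the D cyclins. A D cyclin bound to CDK4 or CDK6 phosphorylates the retinoblastoma protein and so frees E2F factors to switch on genes of S phase. The INK4 proteins, to which p18 (Cdkn2c) and p19 (Cdkn2d) belong, bind CDK4 and CDK6 alone, while the Cip/Kip proteins p21 (Cdkn1a) and p27 (Cdkn1b) bind cyclin and kinase together and restrain CDK2 as well. p21 is a classic target of p53, and the MYC protein pairs with MAX on the DNA letters CACGTG, called an E-box.

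The promoters of Cdk4 and Cdkn1a are shown because they hold the letters through which the Myc and p53 genes described further on are known to act. RefSeq windows (build GRCm38.p6) were found for 7 of the 10 genes, 10 windows in all, and the 250 bases before each start were searched. CACGTG reads the same on both strands. It occurred in 6.02% of all 32851 windows and in 2 of the 10 here, those of Cdk4 and Cdk6. The Cdk4 window held it 4 times, as did 2 of the 32851 windows, and Cdk6 held it once. In the sequence of Cdk4, at chr10:127063285-127063533 on the plus strand, capitals mark CACGTG.
Cdk4: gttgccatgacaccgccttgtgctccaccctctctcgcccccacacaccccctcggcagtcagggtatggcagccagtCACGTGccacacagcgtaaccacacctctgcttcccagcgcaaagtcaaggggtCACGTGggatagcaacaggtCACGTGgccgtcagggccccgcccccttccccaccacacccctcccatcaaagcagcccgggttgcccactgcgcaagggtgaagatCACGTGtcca
A p53 consensus of 20 letters with no spacer and at most 1 mismatch occurred in 25 of the 32851 windows (0.0761%) and in 1 of the 10, which lies before the upstream start of Cdkn1a. In the sequence at chr17:29090729-29090975 on the plus strand, capitals mark that match, which had 1 mismatch.
Cdkn1a: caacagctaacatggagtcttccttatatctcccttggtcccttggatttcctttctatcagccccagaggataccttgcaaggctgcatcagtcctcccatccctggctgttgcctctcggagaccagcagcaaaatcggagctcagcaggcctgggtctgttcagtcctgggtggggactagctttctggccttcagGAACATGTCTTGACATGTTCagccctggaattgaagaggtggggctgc
A match of letters is a description and does not show that a factor was bound in these cells.

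Levels are given as CPM, counts per 1000000 counts of the library's total, and between genes only as FPKM, which also divides by gene length. Total counts ran from 43591167 to 53044907 in the naive and from 29107326 to 44023726 in the allograft libraries. Naive replicate 2 stood apart. Mitochondrial transcripts made up 26.5% of its counts and 2.04% to 3.11% elsewhere. Its 12 ILC2 genes summed to 183 CPM against 7250 to 8004 CPM in the other 6 libraries, with 1 gene, Il13, at 0 counts. Its 12 kidney tubule genes, all above 3 counts, summed to 13259 CPM against 80.2 to 495 CPM elsewhere. The other 6 libraries carried all 12 ILC2 genes above 3 counts. The fold changes of the 10 genes and the medians of the gene lists are therefore given also without this library. In bulk RNA fewer cells of a type and less RNA per cell cannot be told apart.

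None of the 10 genes differed between allograft and naive libraries at an adjusted p of 0.05 in the edgeR quasi-likelihood test, for which 0.0353% of the 17015 genes tested passed. At an unadjusted p under 0.05 there was 1, Cdkn2d, against 10.3% of all genes tested. The fold change was above 0 for 7 of the 10 genes, and for 49.4% of all genes tested, with a median log2 fold change of 0.52 beside -0.014 over all genes tested. Without naive replicate 2 the median was 0.18 beside 0.23 over all genes, and 7 of the 10 were again above 0, as were 58.7% of all genes. In that fit 0 of the 10 passed the threshold, as did 3.1% of all genes. The count was also 0 of 10 without naive replicate 1 (0.568% of all genes passed) and without naive replicate 3 (0.0372%). DESeq2, run as an alternative, also called 0 of the 10, with 5.95% of all genes called, and had 2 of them, Ccnd1 and Cdkn2d, at an unadjusted p under 0.05, beside 15% of all genes.

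The naive libraries were further apart than the allografts. On the log2 CPM scale the SD was larger among the 3 naive than among the 4 allograft libraries for all 10 genes. The median SD over the 8880 genes with a mean of at least 10 CPM was 1.23 in naive and 0.29 in allograft libraries, so the wide naive spread was shared by genes at large. For 5 of the 10 genes, Ccnd1, Ccnd2, Cdk4, Cdkn1a and Cdkn2c, at least 1 naive library was above the whole allograft range and at least 1 below it. The groups did not overlap for 1 gene, Cdkn2d, higher in allografts, while 12.5% of all genes tested were higher without overlap and 2.15% lower. Without naive replicate 2 Cdkn2d stays without overlap by construction, and no other of the 10 genes joined it. In that comparison 21.6% of all genes were higher without overlap.

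**Figure D1:**
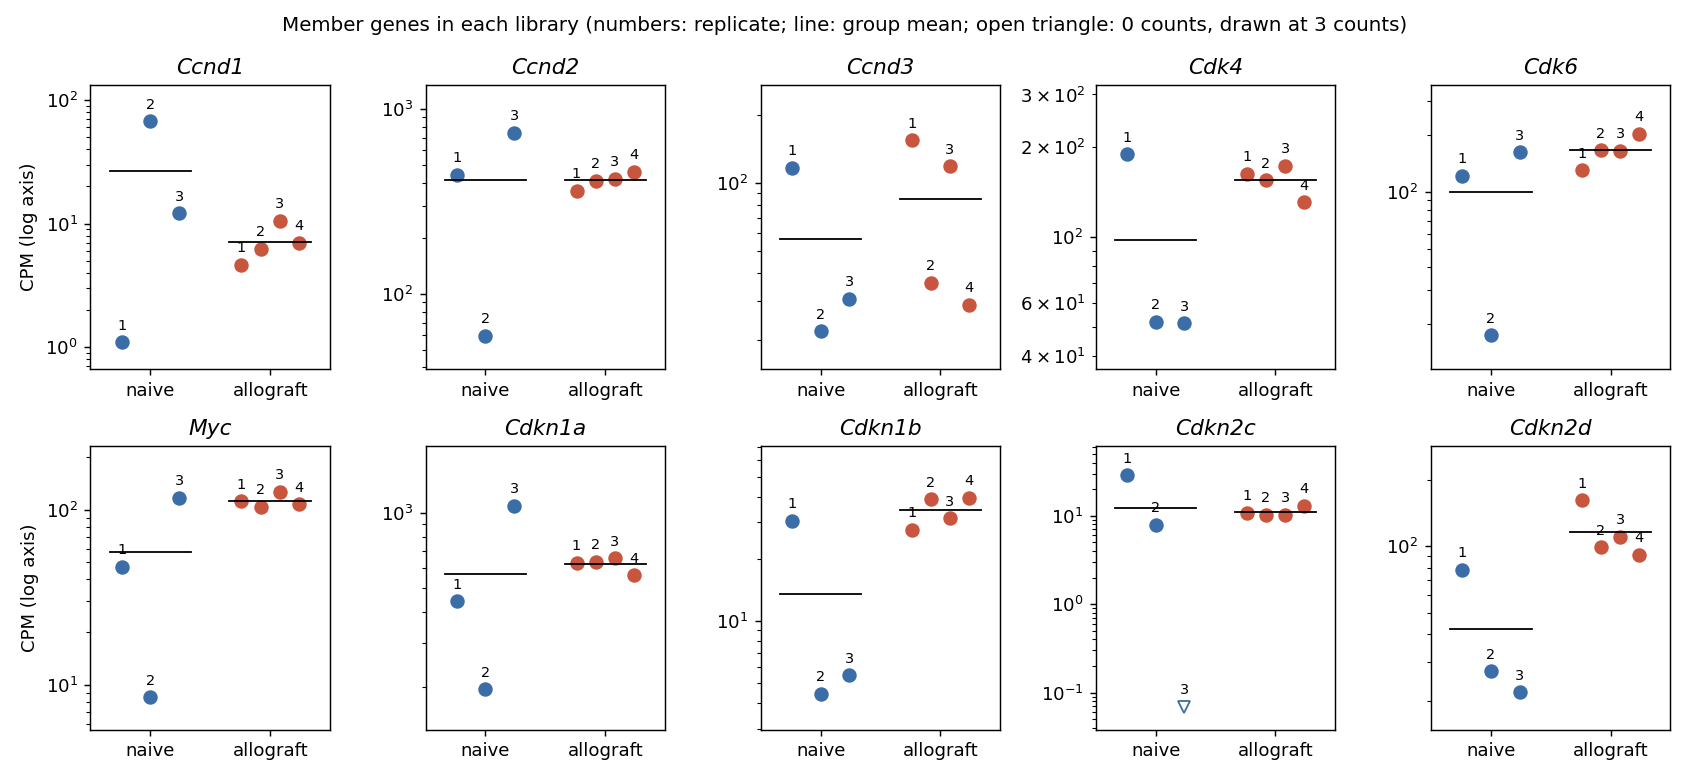
CPM of the 10 genes in each library on log axes, 1 panel a gene; each point is a library numbered by its replicate and each line is a group mean, and the open triangle marks 0 counts drawn at the level of 3 counts. The allograft points spread most for Ccnd3, where replicates 1 and 3 (155 and 119 CPM) lie above replicates 2 and 4 (35.9 and 28.7 CPM), and Cdkn2d has every allograft point above every naive point.

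Ccnd2, a D cyclin known for its induction by cytokines and antigen in lymphocytes, was the main D cyclin of all libraries but 1. Its gene lies at chr6:127125162-127152193 on the minus strand (mm10, GENCODE M21) and has the identifier ENSMUSG00000000184. The 3 naive libraries had 440.1, 59.4 and 744 CPM of it, in the order of their replicate numbers. In allograft replicates 1 to 4 it had 360.4, 408, 419 and 459 CPM. Naive replicate 1 lay within the allograft range, replicate 3 above it and replicate 2 below it. Its log2 fold change was -0.077 (SE 0.63, edgeR adjusted p = 0.992). It was -0.58 (SE 0.26, adjusted p = 0.269) without naive replicate 2 and 0.65 (SE 0.62, 0.621) without naive replicate 3, so that it moved in both directions with single libraries left out.

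Ccnd3, the D cyclin that developing lymphocytes depend on, divided the allograft libraries. It lies at chr17:47505051-47599691 on the plus strand and has the identifier ENSMUSG00000034165. The allografts had 155, 35.9, 119 and 28.7 CPM in replicates 1 to 4. The SD of 1.22 on the log2 scale was larger than that of 97.7% of the 8880 genes, and the highest allograft was 5.4 times the lowest. Naive replicates 1 to 3 had 117, 21.9 and 30.7 CPM. Their SD of 1.27 was larger than that of 52% of the 8880 genes in the naive libraries. Allograft replicates 1 and 3 were also the libraries with the larger totals, 44023726 and 40859450 counts, against 32406822 and 29107326 in replicates 2 and 4; the part of depth in the pattern was not tested. The neighbouring gene Bysl, which shares exon positions with Ccnd3 on the opposite strand, had 28.1, 9.91, 12.8 and 15.5 CPM in allograft replicates 1 to 4. In naive replicates 1 to 3 Bysl had 45.6, 8.70 and 30.5 CPM. The part of its reads in the Ccnd3 levels was not tested. The log2 fold change of Ccnd3 between the groups was 0.49 (SE 0.76, edgeR adjusted p = 0.913), 0.17 (SE 0.86, adjusted p = 0.947) without naive replicate 2 and -0.010 without allograft replicate 1. With the counts of Bysl added it was 0.168 with all libraries.

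Ccnd1, the D cyclin of epithelial and mesenchymal cells and low in most lymphocytes, was rare in all libraries but naive replicate 2. It lies at chr7:144929931-144939925 on the minus strand and has the identifier ENSMUSG00000070348. The naive libraries, again in order, had 1.09 (95% Wilson interval 0.846 to 1.41), 67.4 and 12.1 CPM. The allografts had 4.63, 6.23, 10.5 and 6.97 CPM. The allograft range thus lay between naive replicate 1 on one side and naive replicates 2 and 3 on the other. The log2 fold change of -2.43 (SE 1.20, edgeR adjusted p = 0.579) became 0.028 (SE 0.98, adjusted p = 0.993) without naive replicate 2. With the counts of Oraov1 added, a gene that shares exon positions with Ccnd1 on the opposite strand and had 4.56 to 14.7 CPM, it was -1.14 with all libraries. The 2 naive libraries with more Ccnd1 were those with more kidney tubule RNA, 13259 CPM in replicate 2 (12 of 12 genes above 3 counts) and 495 CPM in replicate 3 (8 of 12; Slc12a1, Lrp2, Cubn and Slc22a6 at 0). Replicate 1 had 80.2 CPM with 7 of these 12 genes at 0, and allograft replicates 1 to 4 had 141, 119, 146 and 100.2 CPM. The 9 endothelial genes summed to 589 CPM in naive replicate 2 (9 of 9 above 3 counts) and to between 39.0 and 62.8 CPM in the other 6 libraries. The part of either in the Ccnd1 level was not tested.

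Per length, the composition of the D cyclins followed from these levels. Ccnd2 made up 67.3%, 88.9%, 73.8% and 91.2% of the summed D cyclin FPKM in allograft replicates 1 to 4, and Ccnd3 made up 31.0%, 8.37%, 22.5% and 6.07%. Ccnd1 took 2.72% ± 0.803 (SD, n = 4). Ccnd2 was thus the leading D cyclin of every allograft, with Ccnd3 as the variable remainder. In the naive libraries Ccnd2 took 77.5%, 27.3% and 92.9%. Ccnd1 took 61.9% in naive replicate 2, where it led, and 0.382% and 3.01% in replicates 1 and 3. The summed D cyclin level itself was 47.4 ± 4.26 FPKM (SD, n = 4) in allografts and 52.7, 21.2 and 75.1 FPKM in naive replicates 1 to 3. The allografts (42.1 to 52.2 FPKM) lay between naive replicates 2 and 1.

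**Figure D2:**
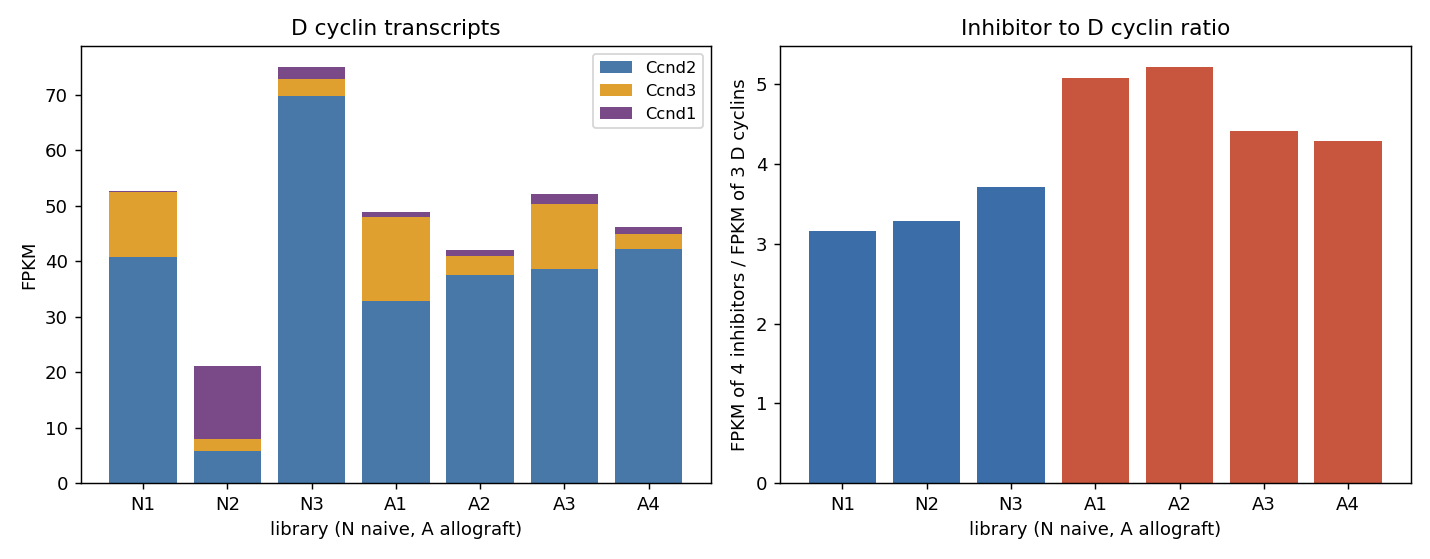
Left, stacked bars of the FPKM of Ccnd2, Ccnd3 and Ccnd1 in each library (N naive, A allograft, with the replicate number); right, the FPKM of the 4 inhibitors divided by that of the 3 D cyclins. Ccnd2 is the largest block in all libraries except N2, where Ccnd1 takes 61.9%, and the ratio is 3.16 to 3.71 in naive and 4.29 to 5.22 in allograft libraries.

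Cdk4, the D cyclin kinase found in nearly all dividing cells, was lower in 2 of the 3 naive libraries than in any allograft. The gene lies at chr10:127063534-127067920 on the plus strand and has the identifier ENSMUSG00000006728. Its naive levels were 189, 51.9 and 51.5 CPM. The allografts had 163, 155, 173 and 131 CPM. Naive replicate 1 lay above all allografts and the other naive libraries below them. Between the groups the log2 fold change was 0.55 (SE 0.46, edgeR adjusted p = 0.784), 1.26 (SE 0.31, adjusted p = 0.117) without naive replicate 1 and 0.34 (SE 0.48, 0.770) without naive replicate 2. Tspan31, which shares exon positions with Cdk4 on the opposite strand, had 57.0 to 127 CPM, and with the counts of both genes summed the log2 fold change was -0.035.

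Cdk6, the second D cyclin kinase and prominent in blood cells, was lowest in naive replicate 2. It lies at chr5:3341485-3531008 on the plus strand and has the identifier ENSMUSG00000040274. Its naive levels were 121, 17.4 and 162 CPM. The allografts had 129.8, 166, 165 and 203 CPM, so that naive replicate 3 lay within their range and replicate 1 just below it. Its log2 fold change was 0.66 (SE 0.58, edgeR adjusted p = 0.799), and 0.18 (SE 0.26, 0.778) without naive replicate 2. Per length, Cdk6 took 42.1% of the summed FPKM of both kinases in naive replicate 3, 12.9% and 7.19% in naive replicates 1 and 2, and 19.99% ± 4.65 (SD, n = 4) in allografts. Cdk4 was therefore the more abundant kinase transcript in every library, and by the least in naive replicate 3.

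Myc, whose product drives growth and ribosome production in activated lymphocytes, was among the steadiest of the 10 genes in allografts. It lies at chr15:61985391-61990374 on the plus strand and has the identifier ENSMUSG00000022346. The allografts had 112, 104, 127 and 107 CPM, an SD on the log2 scale of 0.12, with 9.59% of genes having a smaller one. In the naive libraries it had 47.3, 8.48 and 117 CPM. Replicate 3 was within the allograft range and the other naive libraries below it. For Myc the log2 fold change was 0.89 (SE 0.67, edgeR adjusted p = 0.753). Leaving out a library moved it to 1.92 (SE 0.56, adjusted p = 0.183) without naive replicate 3 and to 0.39 (SE 0.39, 0.649) without naive replicate 2.

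Cdkn1a, the p21 inhibitor that p53 and cytokines induce, was the most abundant of the 10 transcripts per length in all 7 libraries. It lies at chr17:29090976-29100727 on the plus strand and has the identifier ENSMUSG00000023067. The allografts had 628, 636, 656 and 560.1 CPM. Their SD of 0.10 on the log2 scale was the smallest of the 10 genes, with 5.48% of genes having a smaller one. In the naive libraries it had 439.8, 195 and 1068 CPM. All 3 lay outside the allograft range, with replicate 3 above it and the others below. The log2 fold change was 0.013 (SE 0.49, edgeR adjusted p = 0.998), -0.34 (SE 0.36, 0.666) without naive replicate 2 and 0.78 (SE 0.31, 0.291) without naive replicate 3. Per length it stood at 151 ± 10.2 FPKM (SD, n = 4) in allografts, beside 37.8 ± 3.84 FPKM for Ccnd2.

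Cdkn1b, the p27 inhibitor of resting lymphocytes, was low in naive replicates 2 and 3. It lies at chr6:134920401-134925513 on the plus strand and has the identifier ENSMUSG00000003031. Naive replicates 1 to 3 had 30.5, 4.42 and 5.44 CPM. The allografts had 27.6, 38.8, 31.4 and 39.6 CPM, a range that held naive replicate 1. The log2 fold change was 1.28 (SE 0.68, edgeR adjusted p = 0.619) and 0.90 (SE 0.67, adjusted p = 0.504) without naive replicate 2. Without naive replicate 1 it was 2.495 (SE 0.43, adjusted p = 0.0710), the smallest adjusted p of any of the 10 genes under any alternative.

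Cdkn2d, the p19 INK4 inhibitor, was the gene whose groups did not overlap. It lies at chr9:21288410-21291407 on the minus strand and has the identifier ENSMUSG00000096472. It shares no exon position with another gene. Naive replicates 1 to 3 had 78.3, 27.2 and 21.8 CPM. The allografts had 161, 99.0, 110.5 and 91.5 CPM. Every allograft exceeded every naive library, also after TMM and DESeq2 scaling. The log2 fold change was 1.3 (SE 0.48, edgeR unadjusted p = 0.0275, adjusted p = 0.371). Without naive replicate 2 it was 1.18 (SE 0.55, edgeR adjusted p = 0.285). It stayed above 0 in all 17 alternatives, from 0.98 to 1.89, with adjusted p from 0.106 to 1.

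Cdkn2c, the p18 INK4 inhibitor, was the least even of the 10 genes among the naive libraries. It lies at chr4:109660876-109667189 on the minus strand and has the identifier ENSMUSG00000028551. Its naive levels were 28.7, 7.87 and 0 CPM, in replicate order. The 0 counts of replicate 3 allow up to 0.0688 CPM. The allograft levels were 10.9, 10.3, 10.2 and 13.02 CPM, between naive replicates 2 and 1. The log2 fold change was -0.27 (SE 1.59, edgeR adjusted p = 0.985), and its sign changed without naive replicate 1 (0.95, SE 1.91, adjusted p = 0.822). Without naive replicate 2 it was -0.39 (SE 1.81, edgeR adjusted p = 0.943).

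**Figure D3:**
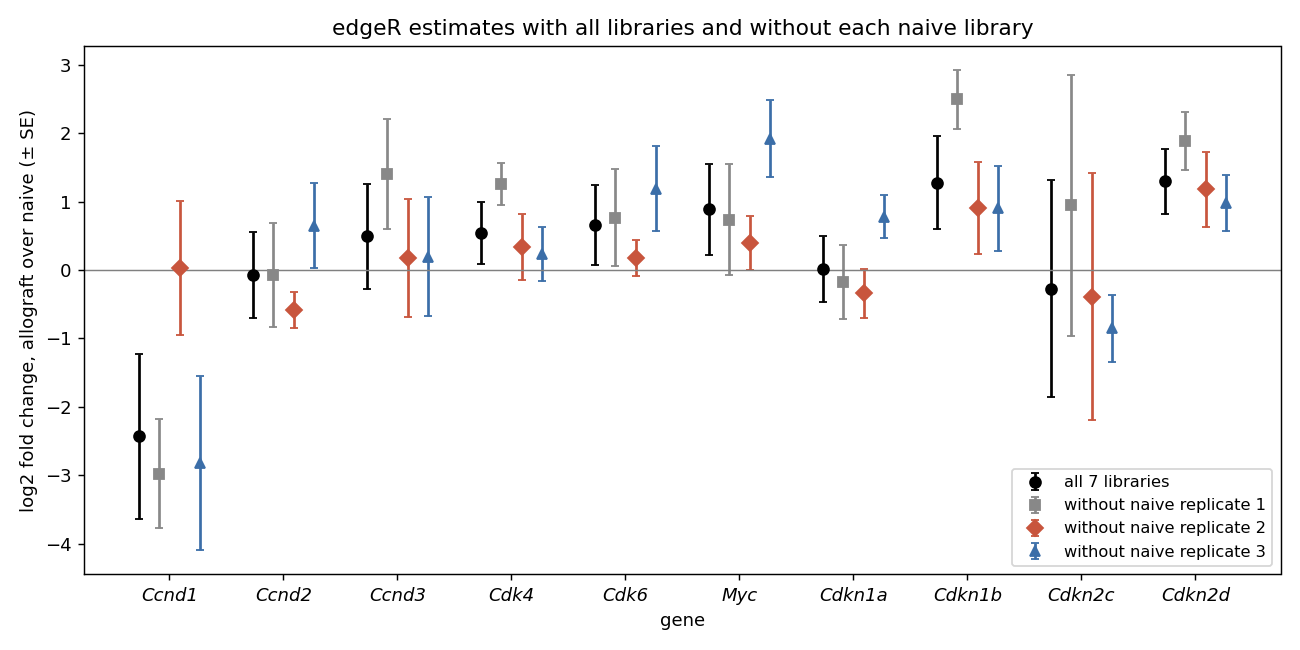
Log2 fold change of allograft over naive with its SE for the 10 genes from edgeR, with all 7 libraries (circles) and without each naive library in turn. Ccnd1 is at -2.43 with all libraries and at 0.028 without naive replicate 2, Ccnd3, Cdk4, Cdk6, Myc, Cdkn1b and Cdkn2d are above 0 in all 4 fits, and no estimate reached an adjusted p of 0.05.

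Per length, the 4 inhibitors exceeded the 3 D cyclins in every library. The ratio of their summed FPKM was 3.16, 3.29 and 3.71 in naive replicates 1 to 3. It was 5.08, 5.22, 4.41 and 4.29 in allograft replicates 1 to 4. All allografts thus had a higher ratio than all naive libraries, including naive replicate 2, and the ratio does not depend on the scaling of a library. With counts in place of FPKM, which weights long transcripts more, the groups overlapped: the ratio was 1.03, 1.58 and 1.39 in naive and 1.59, 1.74, 1.47 and 1.42 in allograft libraries. Cdkn1a made up 95.8% ± 0.877 (SD, n = 4) of the Cip/Kip FPKM in allografts, and Cdkn2d made up 94.4% ± 1.61 of the INK4 FPKM. The INK4 sum was 66.9 ± 16.8 FPKM (SD, n = 4) in allografts and 52.8, 18.5 and 12.2 FPKM in naive replicates 1 to 3, without overlap by a small margin, from 52.8 to 54.5 FPKM. In CPM the INK4 sums overlapped, at 107, 35.0 and 21.8 CPM in naive and 172, 109, 121 and 104.5 CPM in allograft libraries. The ratio and the sums were noticed in these data and are given without a test.

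Between the naive libraries other than replicate 2, some of these genes were higher in replicate 1 and the others in replicate 3. Cdk4, Ccnd3, Cdkn1b, Cdkn2c and Cdkn2d were higher in replicate 1, by 3.67-fold for Cdk4, 3.81-fold for Ccnd3, 5.61-fold for Cdkn1b and 3.59-fold for Cdkn2d. Ccnd1, Ccnd2, Cdk6, Myc and Cdkn1a were lower there than in replicate 3, at 0.0904, 0.592, 0.749, 0.403 and 0.412 times its level. These compare single libraries and have no replicate check. The genes were sorted by these values themselves, as can be done for any pair of libraries, so the split does not define sets of genes. The share of all genes with differences of this size is not given. The 20 S and M phase genes summed to 3856 CPM in naive replicate 1 (20 of 20 above 3 counts), 158 CPM in replicate 2 (16 of 20) and 423 CPM in replicate 3 (14 of 20). In allografts they summed to 2162 to 2424 CPM, with 20 of 20 above 3 counts in each. Mki67, the proliferation antigen gene, was at 272, 0.308 and 7.04 CPM in naive libraries and at 165, 275, 193 and 281 CPM in allografts (log2 fold change 1.304, SE 1.56, edgeR adjusted p = 0.868, and 0.69 without naive replicate 2). Naive replicate 1 thus lay above the allografts in the sum and within their range for Mki67, and the other naive libraries lay below them in both. The number of genes with a count was 15820, 20254 and 13864 in naive replicates 1 to 3 and 19235 to 21354 in allografts, and its part in the low values of replicate 3 was not tested.

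**Figure D4:**
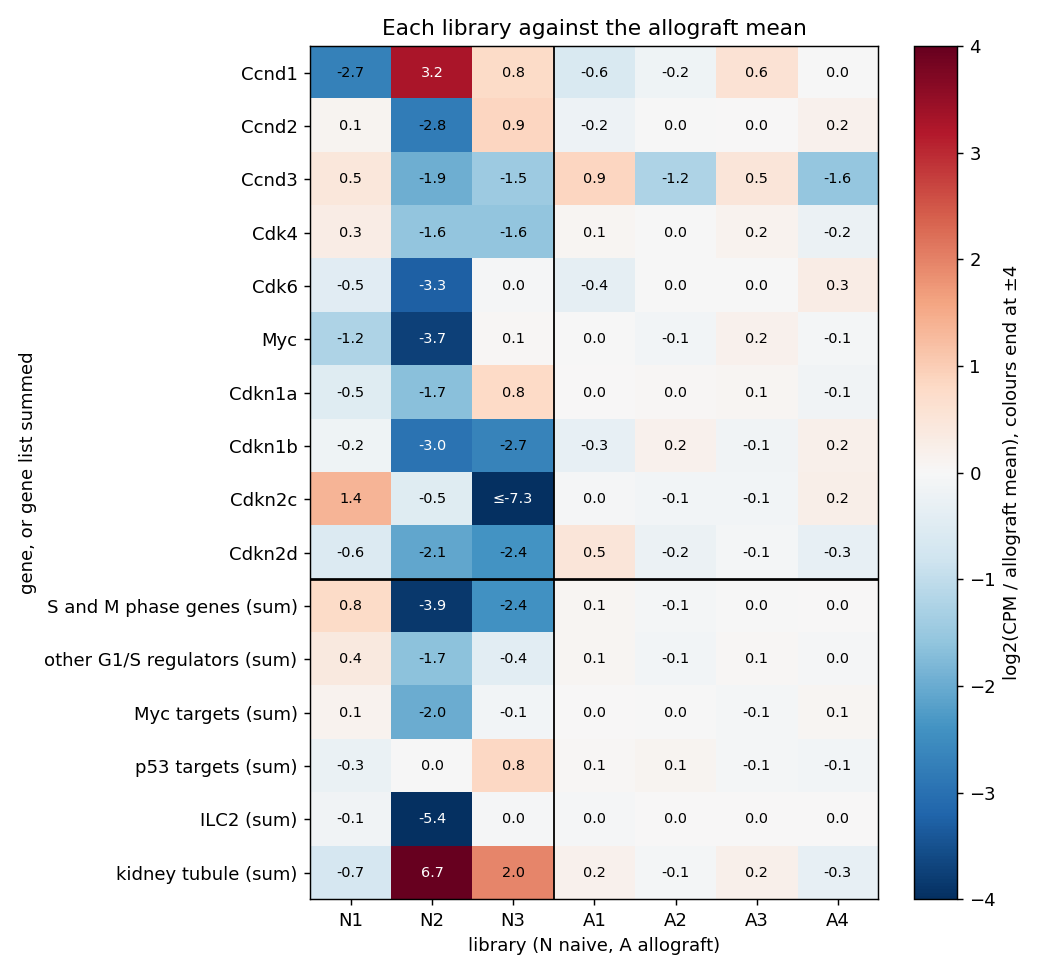
Log2 of each library's CPM over the allograft mean for the 10 genes and for the summed CPM of 6 gene lists, with colours ending at ±4 (N naive, A allograft); Cdkn2c in N3 has 0 counts and is shown as an upper limit. For the S and M phase genes N1 is above the allografts and N2 and N3 below them, while N2 is low in ILC2 genes and high in kidney tubule genes.

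The genes around this switch were examined from 5 lists, 106 genes in all. The 2 genes with the smallest p of each list are named. That choice favours groups without overlap, seen for 12.5% (higher) and 2.15% (lower) of all genes tested. Of 27 other G1/S regulators, 26 were tested and 0 passed the threshold in the edgeR fit, with 2 at an unadjusted p under 0.05. Their median log2 fold change was 0.24, with 15 of 26 above 0, beside -0.014 and 49.4% over all genes. It was -0.044 without naive replicate 2 (13 of 27 above 0), beside 0.23 and 58.7% over all genes, and 1.27 without naive replicate 1, beside 0.038. E2f1, the E2F factor that the retinoblastoma protein holds back, had 14.9, 1.297 and 1.24 CPM in naive and 35.5, 20.7, 27.6 and 34.4 CPM in allograft libraries, without overlap (log2 fold change 2.30, SE 0.94, edgeR adjusted p = 0.455). Its log2 fold change was 1.85 without naive replicate 2 (edgeR adjusted p = 0.329). Tfdp2, a dimer partner of E2F factors, had 46.5, 21.4 and 53.6 CPM in naive and 23.8, 17.99, 21.6 and 27.1 CPM in allograft libraries (log2 fold change -0.98, SE 0.37, adjusted p = 0.388). Leaving out naive replicate 2 or 1 gave 1 call each in this list, both in genes then at 0 counts in the remaining naive libraries, which entered the test through the allografts alone; they are named after their values were seen. Cdkn2b, an INK4 gene, had 4.04, 2.96, 6.02 and 5.02 CPM in allografts, 0 counts in naive replicates 1 and 3, and in the omitted naive replicate 2 13.1 CPM, more than any allograft. Ccne1, the cyclin E1 gene, had 13.3, 9.84, 14.7 and 13.7 CPM in allografts, 0 counts in naive replicates 2 and 3, and in the omitted naive replicate 1 41.1 CPM, again more than any allograft.

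Of the 20 S and M phase genes, 0 passed in edgeR, with 0 at an unadjusted p under 0.05, and their median log2 fold change was 0.64, with 18 above 0, beside -0.014 and 49.4% over all genes. Without naive replicate 1 the median was 3.52 and 4 of 20 passed (0.568% of all genes did), Ccnb2, Aurkb, Top2a and Tk1. Of these Aurkb had 0 counts in both remaining naive libraries and entered the test through the allografts alone. The omitted naive replicate 1 had 226 CPM of Ccnb2, 39.2 CPM of Aurkb and 129 CPM of Tk1, more than any allograft. Its Top2a level lay within the allograft range. Without naive replicate 2 the median was 0.079, with 11 of 20 above 0 and 0 passing. Over all genes the median was then 0.23, with 58.7% above 0. Top2a, the topoisomerase of mitotic chromosomes, had 256, 2.70 and 4.86 CPM in naive and 172, 309, 217 and 300 CPM in allograft libraries (log2 fold change 1.51, SE 1.35, edgeR adjusted p = 0.803). Mcm4, a subunit of the replicative helicase, had 93.5, 6.27 and 16.3 CPM in naive and 90.9, 86.8, 116 and 72.2 CPM in allograft libraries (1.20, SE 0.76, 0.709). Both genes were high in naive replicate 1 and low in the other naive libraries. Their log2 fold changes without naive replicate 2 were 0.91 for Top2a and 0.71 for Mcm4.

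The 25 Myc targets, mostly genes of nucleolar and ribosomal RNA work, had a median log2 fold change of 0.41. In edgeR 0 of them passed, with 1 at an unadjusted p under 0.05 and 21 of 25 above 0. Over all genes the median was -0.014, with 10.3% at that level and 49.4% above 0. Without naive replicate 2 the median of the list was 0.15, with 15 of 25 above 0, beside 0.23 and 58.7% over all genes. Without naive replicate 1 it was 0.90, beside 0.038. Their summed CPM was 4157, 947 and 3511 in naive replicates 1 to 3 and 3583 to 3985 in allografts. Naive replicate 1, with less Myc than any allograft, had the highest sum of all 7 libraries. Tfb2m, a mitochondrial transcription factor gene, had 19.0, 29.9 and 35.7 CPM in naive and 12.4, 10.3, 15.0 and 12.99 CPM in allograft libraries, without overlap (log2 fold change -1.41, SE 0.46, edgeR adjusted p = 0.341). Mybbp1a, a nucleolar protein gene, had 18.1, 11.7 and 14.3 CPM in naive and 36.7, 23.1, 42.9 and 25.3 CPM in allograft libraries, also without overlap (0.93, SE 0.42, 0.514). Of the 13 Myc partners and antagonists 0 passed, with a median of -0.17 and 1 gene at an unadjusted p under 0.05. Their median was -0.53 without naive replicate 2 (2 of 13 above 0), -0.094 without naive replicate 1 and 0.22 without naive replicate 3 (8 of 13 above 0). Over all genes the medians of these fits were 0.23 (58.7% above 0), 0.038 and 0.053. Mnt, which competes with MYC for MAX, had 5.79, 9.74 and 6.77 CPM in naive and 14.0, 26.3, 17.1 and 23.5 CPM in allograft libraries, without overlap in CPM but with overlap after TMM scaling (1.15, SE 0.59, edgeR adjusted p = 0.595). Mlx, a MAX-like partner, had 56.4, 8.97 and 36.1 CPM in naive and 18.1, 9.38, 20.4 and 26.0 CPM in allograft libraries (-0.95, SE 0.59, 0.702).

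Of 21 p53 targets other than Cdkn1a, 20 were tested and 0 passed in edgeR, with 2 higher and 4 lower at an unadjusted p under 0.05 and a median log2 fold change of -0.33. The median was -0.36 without naive replicate 2 (6 of 20 above 0) and 0.18 without naive replicate 3 (11 of 20). Over all genes the medians of these 2 fits were 0.23 (58.7% above 0) and 0.053, and -0.014 with all libraries. At an unadjusted p under 0.05 with all libraries, 6.41% of all genes were higher and 3.86% lower. Trp53inp1, a stress-induced p53 cofactor gene, had 40.9, 24.6 and 36.3 CPM in naive and 109, 143, 58.2 and 120.0 CPM in allograft libraries, without overlap (log2 fold change 1.49, SE 0.37, edgeR adjusted p = 0.186). Perp, a membrane protein gene of epithelia and apoptosis, had 10.05, 50.8 and 31.4 CPM in naive and 9.90, 6.17, 4.09 and 5.43 CPM in allograft libraries, without overlap in CPM but with overlap after TMM scaling (-2.63, SE 0.73, 0.250). Without naive replicate 2, where Perp was highest, its log2 fold change was -1.75 (edgeR adjusted p = 0.228). The summed level of the list was 1113, 1349 and 2407 CPM in naive replicates 1 to 3 and 1254 to 1459 CPM in allografts. Naive replicate 3 was highest here as for Cdkn1a, with Bbc3, Phlda3 and Eda2r at 0 counts. The orders differed otherwise: naive replicate 1 was lowest in the sum, while Cdkn1a was lowest in naive replicate 2, at 195 CPM.

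**Figure D5:**
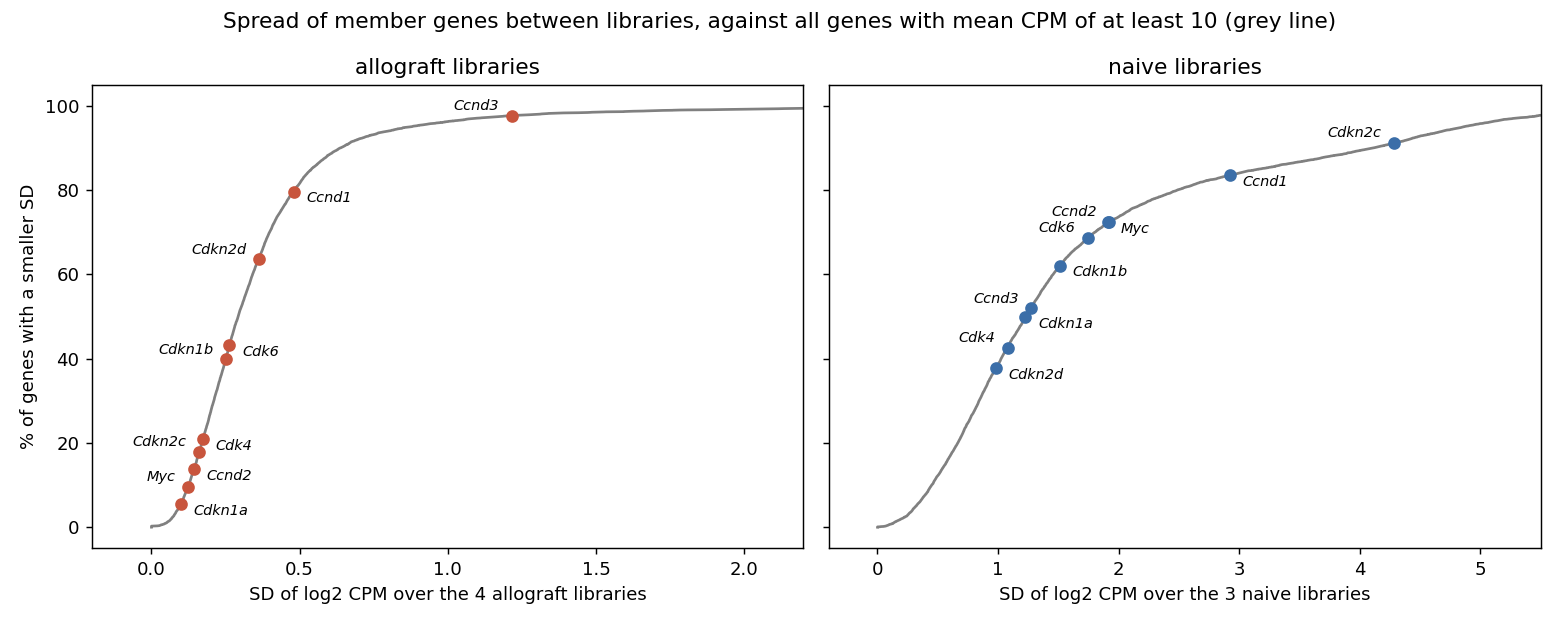
SD of log2 CPM of the 10 genes (points) over the 4 allograft (left) and 3 naive (right) libraries, against the share of the 8880 genes with a mean of at least 10 CPM that have a smaller SD (grey line; axes end before the largest SDs). In allografts Cdkn1a and Myc are near the lower end and Ccnd3 is above 97.7% of genes, and in naive libraries Cdkn2c is above 91.3%.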

How the data were processed

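The authors deposited whole-number counts per gene and FPKM for 3 naive and 4 allograft libraries. Per the submitters' processing notes, STAR 2.5.3a, StringTie 1.3.1c, FastQC 0.11.5 and DESeq2 1.16.1 were used with build mm10, without stated roles; annotation and use of strand are not given in the sources used here, so reads of overlapping opposite-strand genes cannot be told apart. Per the labels' protocols, full-length cDNA was made and amplified with a kit for single cells; no molecular identifiers are mentioned, so the 95% Wilson intervals and the limit of 3 counts cover counting error only. Of the 70 values of the 10 genes, 68 rested on at least 100 counts, with a half-width of at most 13.9% of the value. For these genes, deposited FPKM and CPM gave the same ratios between libraries within 1.21%, once each library's own factor was removed. Libraries are pools, so p-values measure the spread between these libraries.

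Counts were tested with edgeR 4.0.16 (quasi-likelihood, trimmed-mean TMM scaling, filterByExpr, R 4.3.3) over all 7 libraries, with Benjamini-Hochberg adjustment over 17015 genes at 0.05; all 10 genes passed the filter. SEs were derived from the F value. Alternatives were DESeq2 1.42.0, other scalings and filters, limma 3.58.1 on log2(FPKM + 0.1) or log2(FPKM + 1), a replicate block, and leaving out each library. Coordinates and overlaps came from GENCODE M21. Fits were tested on simulated data. Besides the 10 genes, the 2 genes with the smallest p in each list (mean of at least 1 CPM) and Mki67 were named. The genes and lists were chosen with earlier results of these data known.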

Additional observations from a re-analysis of the deposited data

Results flagged for a closer look

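A single allograft library far from the other 3 was looked for in 39 measures: the CPM of the 10 genes, the summed CPM of the other gene lists, and the FPKM shares and sums. A library stood apart in 2 of them, where chance gives about 1 in 20, or 1.95. Neither was a value of the 10 genes. The 8 B cell genes summed to 319.2 CPM in allograft replicate 4 against 476.4 to 485.6 CPM in the others. The myeloid genes, of which 9 were used because 1 symbol had several identifiers, summed to 317.8 CPM in allograft replicate 1 against 195.5 to 210.3 CPM in the others. Ccnd3 was not among them, since its allograft values formed 2 pairs.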

How the results depend on the processing

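None of the 10 genes passed the threshold in any of the 17 alternatives. Cdk6, Myc, Cdkn1b and Cdkn2d kept a fold change above 0 in all 17. Cdkn1a, at 0.013, turned below 0 with DESeq2 (-0.14), its size factors in edgeR (-0.14), no filter (-0.0021) and without naive replicate 1 (-0.18), naive replicate 2 (-0.34), allograft replicate 1 (-0.030) or allograft replicate 3 (-0.013). Ccnd2 turned above 0 with limma (0.56 with a pseudocount of 0.1, filtered or not, 0.51 with 1) and without naive replicate 3 (0.65). Cdkn2c did so with limma (1.40, filtered or not, and 0.44 with a pseudocount of 1) and without naive replicate 1 (0.95). Leaving out 1 library gave -0.34 to 0.78 for Cdkn1a, -0.58 to 0.65 for Ccnd2, -0.85 to 0.95 for Cdkn2c, -2.98 to 0.028 for Ccnd1 and -0.010 to 1.40 for Ccnd3. Ccnd1 reached 0.028 without naive replicate 2, Ccnd3 -0.010 without allograft replicate 1, and Cdk4 -0.035 when summed with Tspan31, an alternative chosen after seeing the data. Deviations of same-numbered naive and allograft libraries correlated at 0.03, -0.04 and 0.03, within the range of different numbers, -0.098 to 0.075. These values cannot decide whether libraries were paired, since the naive deviations are taken from a mean that includes naive replicate 2. With the replicate block 0 genes passed, with 252 at an unadjusted p under 0.05, and Ccnd2 (0.29) and Cdkn2c (0.84) changed sign.

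The count of genes past the threshold, 6, was 1012 with DESeq2, 153, 69 and 39 with limma (pseudocount 0.1, pseudocount 1, and 0.1 without a filter), and 0 to 560 when 1 library was left out (107, 560 and 7 without naive replicates 1, 2 and 3, and 0 without any 1 allograft). DESeq2 called 1 other G1/S regulator (Tfdp2), 1 Myc target (Tfb2m) and 2 p53 targets (Trp53inp1 and Perp). In the list of Myc partners and antagonists it called 1 gene, Mycl. Mycl had 0 counts in every naive library and 0.441 to 1.27 CPM in allografts, so it entered the test through the allografts alone. Leaving out 1 library gave 0 to 1 other G1/S regulators and 0 to 4 S and M phase genes. DESeq2 size factors moved the median of all genes from -0.014 to -0.20, and to 0.17 without TMM.

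Leaving out 1 library, the mean naive share ran from 1.70% to 32.5% for Ccnd1, 52.4% to 85.2% for Ccnd2, 7.45% to 16.4% for Ccnd3 and 10.04% to 27.5% for Cdk6. In allografts the ranges were 2.40% to 3.05%, 76.7% to 84.6%, 12.3% to 20.6% and 17.8% to 21.5%. The inhibitor ratio ran from 3.23 to 3.50 in naive and from 4.59 to 4.90 in allografts. With counts in place of FPKM the Cdk6 share was 46.7% and 51.4%, the ratio 1.33 and 1.56 (naive, allograft) and the allograft Ccnd1 share 1.40%, by construction, since gene lengths differ. Causes of the other changes were not tested.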

Other observations

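The CD45-positive, lineage-negative, ST2-positive gate would remove most of the cell types below, and kidney tubule and endothelial cells too; mast cells can carry CD45 and ST2. The 9 cardiomyocyte genes summed to 3.86 to 39.0 CPM, with 5 to 8 of them at 0 counts in each library and Tnnt2, Myl2 and Ryr2 at 0 in all 7. For the 10 T cell genes the sum was 320.6, 37.0 and 809.5 CPM in the naive libraries, in replicate order, and 501 to 584 CPM in allografts, with Cd4, Cd8a and Cd5 each at 0 in 5 of the 7 libraries. The 8 B cell genes summed to 265, 26.1 and 249 CPM in naive and 319 to 486 CPM in allograft libraries, without overlap, with 5, 2 and 7 of the 8 at 0 in naive replicates 1 to 3. The 9 myeloid genes summed to 2.49, 279.97 and 453 CPM in naive and 196 to 318 CPM in allograft libraries. In naive replicates 1 to 3, 8, 0 and 6 of the 9 were at 0. The 8 mast cell genes summed to 328, 75.6 and 724 CPM in naive and 309 to 335 CPM in allograft libraries. The 7 erythroid genes summed to 786, 3004 and 776 CPM and to 468 to 598 CPM. The 8 fibroblast genes summed to 0.0566, 143 and 114 CPM and to 23.3 to 72.0 CPM, with 6, 2 and 5 of the 8 at 0 in naive replicates 1 to 3. The 8 lung epithelium genes summed to 5.99, 236 and 718 CPM and to 279.6 to 718 CPM, with 6, 6 and 2 of the 8 at 0 in naive replicates 1 to 3. In naive replicate 2 only Ager and Napsa had counts. Sums with most of their genes at 0 rest on few genes.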
